A study of Rattus norvegicus with 8 samples.

Results

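Genes of autophagy and of the lysosome were examined in the perfused liver of the male Wistar rat, an outbred strain. The set was a fixed list of 48 genes that covers the steps from the start of an autophagosome to digestion in the lysosome. A gene counted as measured when a probe set of the array carried its symbol and no other, and where a gene had several probe sets the one with the highest mean over all arrays was taken. In this way 41 of the 48 genes were measured, out of 14506 genes on the array. Atg101, Atg2b, Atg4a, Atg4d and Tfe3 are not analysed here, and neither are Ambra1 and Atg2a, whose probe sets are shared with Harbi1 and Ehd1.

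The livers came from rats 6 to 10 weeks old and were perfused with Krebs-Henseleit buffer, a salt solution pumped through the vessels of the isolated organ. In 4 samples the buffer was hypoosmotic, at 225 mosm/L, which draws water into cells, and in 4 it was normoosmotic, at 305 mosm/L. All 8 samples carry the time point of 120 min, and total RNA of each was measured on an Affymetrix array. Whether each of the 4 samples in a group is a different animal is not in the labels, so the p-values rest on a spread among samples that may be technical.

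Autophagy encloses cytoplasm in a double membrane, the autophagosome, and delivers it to lysosomes for breakdown. The Ulk kinase complex starts the process, a class III phosphatidylinositol kinase complex marks the growing membrane, conjugation enzymes attach Atg8-family proteins to it, and receptors tie cargo to those proteins. In liver this route supplies amino acids during fasting, and swelling of hepatocytes is known to inhibit autophagic protein breakdown. The comparison asks whether transcripts of the machinery differ between the 2 perfusates.

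The deposited values are on a log2 scale, and a change is the mean of the hypoosmotic arrays minus the mean of the normoosmotic ones. Changes, standard errors (SE), 95% intervals and adjusted p-values come from a limma fit of all 14506 genes, with an adjusted p under 0.05 as the threshold for calling a gene. The arrays were alike, with pairwise correlations across genes of 0.983 to 0.991 and medians of 4.05 to 4.16. The 9 hepatocyte markers, Alb and Apob among them, had mean log2 values of 11.73 to 11.91 in hypoosmotic arrays and 11.78 to 11.83 in normoosmotic arrays, and 0 of them were called. Within groups the arrays differed in genes of the circadian clock. A clock score, which sets Bmal1 and Npas2 (mean) against Dbp and Per3 (mean), ran from −0.52 to 1.38 in hypoosmotic arrays and from −3.39 to 1.49 in normoosmotic arrays. Normoosmotic replicates 1 and 3 had scores of −2.805 and −3.385, and replicates 2 and 4 had 1.265 and 1.49. No hypoosmotic array came near replicates 1 and 3, so the score was not balanced between the buffers.

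Hypoosmotic livers had less mRNA signal for the cargo receptor gene Sqstm1 and, on 1 of its 2 probe sets, for the initiation gene Rb1cc1. The other 39 measured genes did not pass the test. Sqstm1 kept its call in 9 of 17 alternatives and Rb1cc1 in 8, and neither kept it with the clock score in the model. These 2 called genes, both lower, were 4.88% of the 41, against 1.98% of all genes called in either direction, 1.42% called lower and 0.558% called higher. All genes include dim ones, whereas 32 of the 41 lay above the 75th percentile of mean signal. Without the dimmest 25% of genes, 2 of the 41 and 334 of all 10879 remaining genes were called. In whole tissue, fewer cells of a type and less RNA per cell cannot be told apart. The median change of the 41 genes was −0.05, against 0.04 over all genes, but it was near 0 in several alternatives. It was 0.0033 without hypoosmotic replicate 1, 5e-04 with the clock score in the model, −0.01 without normoosmotic replicate 3, −0.02 without hypoosmotic replicate 3, −0.03 without normoosmotic replicate 4 and −0.08 without hypoosmotic replicate 4. Of the 41, 25 had a change below 0, 15 a change above 0, and Becn1 a change of 0. In 7 genes, or 17.1%, the values of the groups did not overlap, against 8.27% of all genes (5.05% lower and 3.21% higher). Without the dimmest 25% of genes the share without overlap was 9.95% of the remaining genes. After the median of each array was subtracted the shares without overlap were 9.76% of the 41 and 7.41% of all genes. Lower without overlap were Sqstm1, Rb1cc1, Nbr1 and Ctsl, and higher without overlap were Atg7, Atg4b and Ctsd. An unadjusted p under 0.05 was reached by 7 of the 41, or 17.1%, against 14.6% of all genes. Of these 7, 6 were lower and 1 was higher, against 7.97% and 6.6% of all genes.

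**Figure D1:**
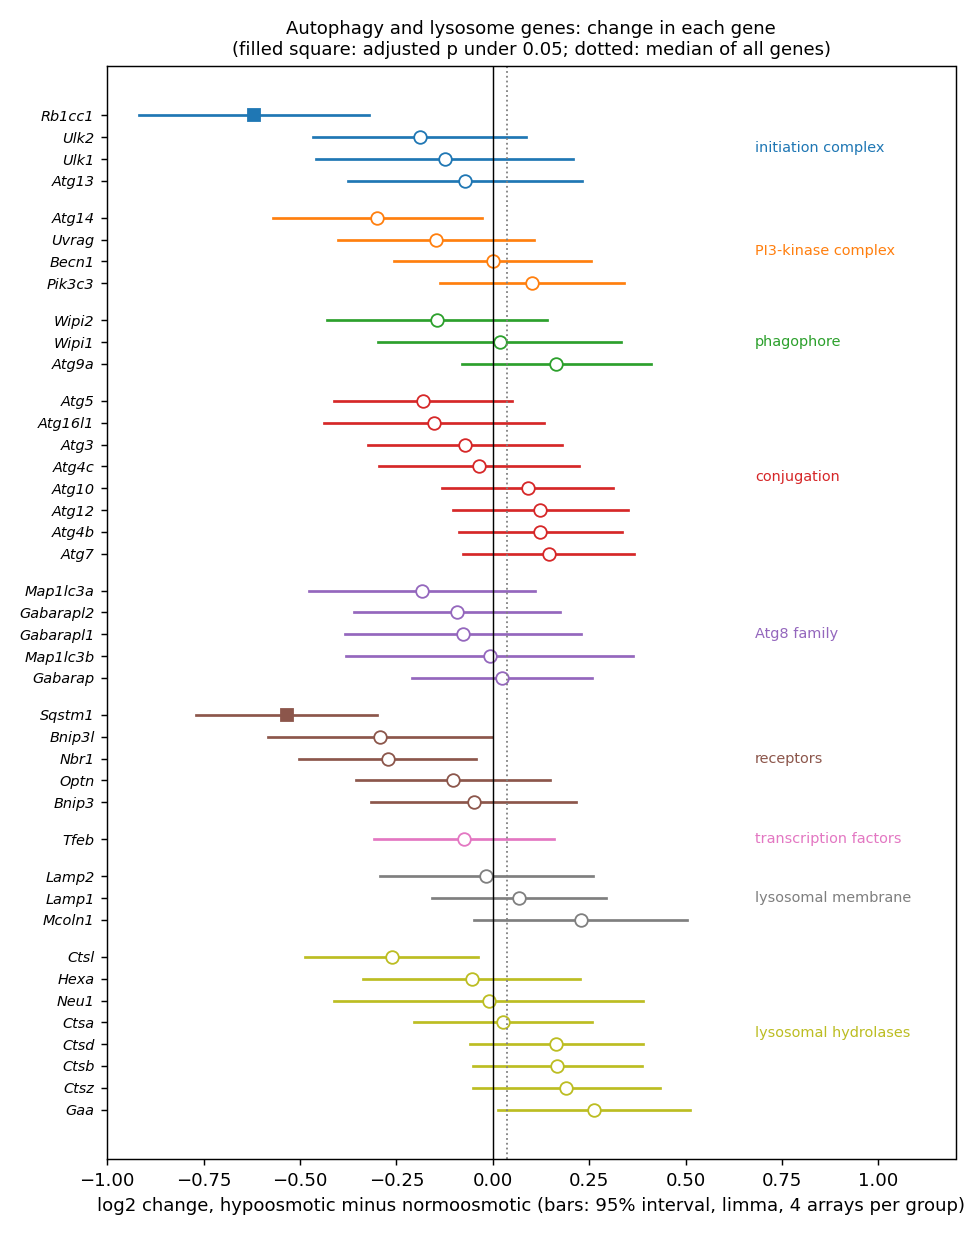
Change of each of the 41 measured genes, in log2 units of hypoosmotic minus normoosmotic (x axis), grouped by role; bars are 95% intervals from limma with 4 arrays per group, filled squares are called genes, open circles are not, and the dotted line is the median of all genes. Rb1cc1 at −0.62 and Sqstm1 at −0.54 are the filled squares, and the 5 receptors and 4 initiation genes all lie left of 0.

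Sqstm1 (probe set 10742388) encodes p62, a receptor that binds ubiquitinated cargo and is itself degraded by autophagy. Its log2 value was 9.85, 9.76, 9.83 and 9.95 in hypoosmotic replicates 1 to 4, against 10.30, 10.55, 10.30 and 10.38 in normoosmotic replicates 1 to 4. Every hypoosmotic array lay below every normoosmotic one. Sqstm1 averaged 9.85 ± 0.08 in hypoosmotic livers and 10.38 ± 0.12 in normoosmotic livers (SD, n = 4 each). It fell by 0.54 ± 0.11 on the log2 scale (SE), which is 0.690 times the normoosmotic level (95% interval of the log2 change −0.77 to −0.30; limma, adjusted p = 0.0237). The call was lost without normoosmotic replicate 1 (0.0531), 2 (0.0608) or 3 (0.0631) and without hypoosmotic replicate 1 (0.0581), 2 (0.0899) or 3 (0.0592), while the log2 change stayed between −0.57 and −0.48. It was also lost with the clock score in the model (0.0514) and in the fit that blocks on replicate number (0.051).

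The promoter of Sqstm1 is shown because this gene had the smallest p of the set. It is the RefSeq window from 250 bases before to 50 bases after the start site, at chr10:35037701-35038000 on the minus strand of GRCr8, an assembly that is used here for sequences only.
Sqstm1: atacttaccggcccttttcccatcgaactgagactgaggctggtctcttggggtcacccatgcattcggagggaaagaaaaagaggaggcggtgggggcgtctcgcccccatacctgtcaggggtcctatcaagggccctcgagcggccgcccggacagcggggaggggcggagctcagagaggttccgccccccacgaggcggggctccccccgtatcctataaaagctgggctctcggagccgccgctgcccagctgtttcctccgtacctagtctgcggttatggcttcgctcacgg
Of the motifs searched on both strands, TCACGTGA, CACGTG and TGACNNNGC, 0 matches were found in this window, and so it has no capitals. The first 2 are the core of the element bound by the lysosomal regulator Tfeb and the E-box within it. The third is the core of the antioxidant response element, through which Nrf2 is known to act on Sqstm1 in mouse cells. Bases outside the window were not searched, so 0 matches here do not bear on elements farther from the start site. TGACNNNGC was found for 9 of the 41 listed genes with a promoter in the RefSeq table (22%), against 12.1% of all promoters. These 41 are not the same genes as the 41 measured ones, since Atg4d is among the 9.

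The other receptors all had changes below 0 and none passed the test. Nbr1 (probe set 10738430), a receptor built like Sqstm1, had log2 values of 8.25, 8.10, 8.23 and 8.28 in hypoosmotic replicates 1 to 4, against 8.48, 8.47, 8.62 and 8.38 in normoosmotic replicates 1 to 4. The groups did not overlap, and the log2 change was −0.27 ± 0.11 (SE; adjusted p = 0.242, limma). Bnip3l, a mitophagy receptor of the outer mitochondrial membrane, had values of 8.11, 8.30, 7.94 and 8.47 in hypoosmotic replicates, against 8.66, 8.44, 8.58 and 8.31 in normoosmotic replicates. Hypoosmotic replicate 4 lay above 2 of the normoosmotic arrays, and the log2 change was −0.29 (95% interval −0.58 to −0.001; adjusted p = 0.340, limma).

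The related mitophagy gene Bnip3 had values of 8.47, 8.39, 8.47 and 8.70 in hypoosmotic replicates, against 8.61, 8.39, 8.79 and 8.44 in normoosmotic replicates. Its groups overlapped throughout, with a log2 change of −0.05 on the probe set taken and of 0.08 on the other. Optn, a receptor that binds ubiquitin and Atg8-family proteins, had a log2 change of −0.10. Over the 5 receptors the median change was −0.27, against 0.04 over all genes. It was −0.31 after the median of each array was subtracted, and it lay between −0.31 and −0.20 when each array was left out in turn.

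Rb1cc1 (probe set 10875183) encodes Fip200, the scaffold of the Ulk kinase complex. Its log2 value was 7.62, 7.52, 7.45 and 7.86 in hypoosmotic replicates 1 to 4, against 8.57, 8.07, 8.17 and 8.12 in normoosmotic replicates 1 to 4. The groups did not overlap, and normoosmotic replicate 1 stood above the other normoosmotic arrays. Rb1cc1 averaged 7.61 ± 0.18 in hypoosmotic livers and 8.23 ± 0.23 in normoosmotic livers (SD, n = 4 each). It fell by 0.62 ± 0.14 on the log2 scale (SE), to 0.651 times the normoosmotic level (95% interval of the log2 change −0.92 to −0.32; limma, adjusted p = 0.0385). The call was lost without normoosmotic replicate 1 (0.0986), 3 (0.0858) or 4 (0.053) and without hypoosmotic replicate 1 (0.0808), 2 (0.126) or 3 (0.1). With the clock score in the model the adjusted p was 0.124.

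A dimmer probe set of Rb1cc1 (10875208) did not share the difference. It read 5.98, 6.02, 5.98 and 5.86 in hypoosmotic replicates 1 to 4, against 5.87, 6.25, 5.91 and 5.84 in normoosmotic replicates 1 to 4, a log2 change of −0.01 with a 95% interval of −0.27 to 0.25. The brighter probe set exceeded the dimmer one by 1.65 ± 0.24 in hypoosmotic arrays and by 2.26 ± 0.36 in normoosmotic arrays (SD, n = 4 each). With the mean over both probe sets the log2 change of Rb1cc1 was −0.31 and the adjusted p 0.159, so the fall rests on 1 of 2 probe sets.

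**Figure D2:**
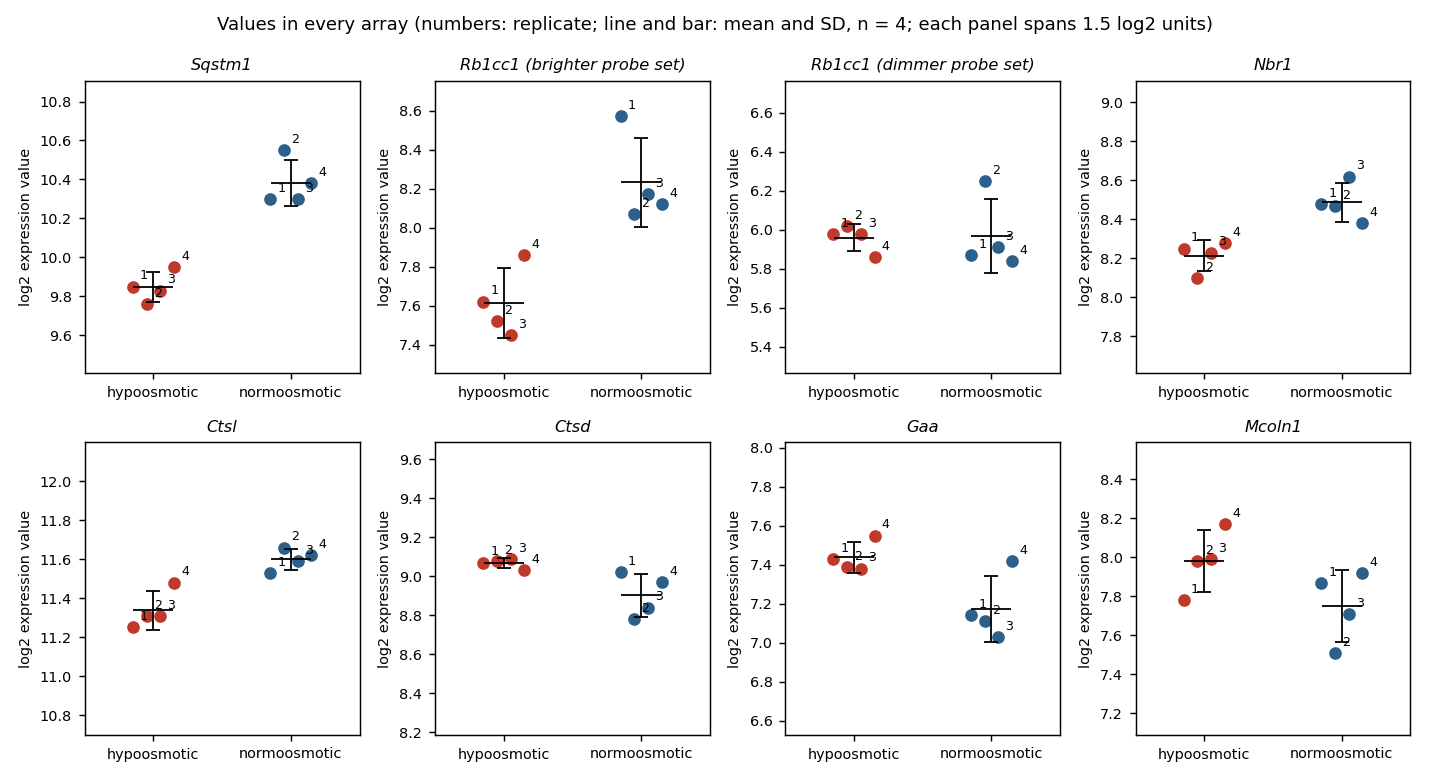
Log2 expression values (y axis) of 7 genes in each hypoosmotic (left, red) and normoosmotic (right, blue) array, with Rb1cc1 on both of its probe sets; numbers are replicates, and the line and bar are the mean and SD of 4 arrays. Sqstm1, the brighter Rb1cc1 probe set, Nbr1 and Ctsl lie lower in all 4 hypoosmotic arrays, Ctsd lies higher in all 4, and the dimmer Rb1cc1 probe set overlaps between groups.

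The kinases of the initiation complex did not pass the test. Ulk1, the kinase that mTORC1 and AMPK act on, had log2 values of 6.73, 7.04, 6.95 and 7.37 in hypoosmotic replicates 1 to 4, against 6.87, 7.09, 7.43 and 7.20 in normoosmotic replicates 1 to 4. Its groups overlapped, with a log2 change of −0.13 (95% interval −0.46 to 0.21). The related kinase gene Ulk2 had values of 6.99, 6.98, 7.09 and 7.39 in hypoosmotic replicates, against 7.25, 7.18, 7.53 and 7.25 in normoosmotic replicates, a log2 change of −0.19 (−0.47 to 0.09). In both kinases 3 of the hypoosmotic arrays lay below all or all but 1 of the normoosmotic ones, and hypoosmotic replicate 4 was high. Atg13, the adaptor between kinase and scaffold, had a log2 change of −0.07, and the median of the 4 genes was −0.16. Leaving out normoosmotic replicate 3 gave a median of −0.07, and leaving out hypoosmotic replicate 4 one of −0.26.

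In the phosphatidylinositol kinase complex 0 of 4 genes were called. Atg14 directs the complex to autophagosome formation. It had log2 values of 4.65, 4.73, 4.77 and 5.12 in hypoosmotic replicates 1 to 4, against 5.02, 5.04, 5.15 and 5.26 in normoosmotic replicates 1 to 4. Only hypoosmotic replicate 4 reached into the normoosmotic range, and the log2 change was −0.30 ± 0.13 (SE; adjusted p = 0.285, limma). Uvrag, which takes the place of Atg14 in the form of the complex that acts on endosomes, had values of 7.04, 7.13, 7.15 and 7.27 in hypoosmotic replicates, against 7.45, 7.10, 7.20 and 7.43 in normoosmotic replicates, a log2 change of −0.15. The catalytic subunit gene Pik3c3 had a log2 change of 0.10 (95% interval −0.14 to 0.34), and the core subunit gene Becn1 one of 0.00 (−0.26 to 0.26).

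Of the genes that extend the membrane, 0 of 3 were called. Atg9a, the membrane protein of the vesicles that feed the growing sac, had log2 values of 6.45, 6.57, 6.67 and 6.82 in hypoosmotic replicates 1 to 4, against 6.46, 6.37, 6.48 and 6.54 in normoosmotic replicates 1 to 4. Hypoosmotic replicates 2 to 4 lay above the normoosmotic arrays and replicate 1 among them, and the log2 change was 0.17 (95% interval −0.08 to 0.41). Wipi2, which reads the lipid mark and recruits Atg16l1, had values of 6.59, 6.43, 6.67 and 6.88 in hypoosmotic replicates, against 6.57, 6.90, 6.98 and 6.70 in normoosmotic replicates, a log2 change of −0.15. Its relative Wipi1 had a change of 0.02.

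The conjugation genes had small changes on both sides of 0, and 0 of 8 were called. Atg7, the enzyme that activates both Atg12 and the Atg8-family proteins, had log2 values of 5.25, 5.13, 5.09 and 5.20 in hypoosmotic replicates 1 to 4, against 4.93, 5.02, 5.06 and 5.08 in normoosmotic replicates 1 to 4. The groups did not overlap, but the log2 change was only 0.15 (95% interval −0.08 to 0.37; adjusted p = 0.583, limma). Atg5, the partner of Atg12, had values of 6.45, 6.48, 6.42 and 6.54 in hypoosmotic replicates, against 6.63, 6.77, 6.72 and 6.49 in normoosmotic replicates, a log2 change of −0.18 (−0.41 to 0.05). Only normoosmotic replicate 4 fell within the hypoosmotic range.

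The protease gene Atg4b, whose product trims Atg8-family proteins, did not overlap between groups, at 4.81 to 4.89 in hypoosmotic arrays and 4.70 to 4.75 in normoosmotic arrays, with a log2 change of 0.12. Its relative Atg4c had a change of −0.04. Atg12 and the transfer enzyme gene Atg10 had changes of 0.12 and 0.09, and the transfer enzyme gene Atg3 and the scaffold gene Atg16l1 had changes of −0.07 and −0.15. The median of the 8 genes was 0.03, and −0.01 after subtraction of array medians. It was 0.05 without normoosmotic or hypoosmotic replicate 1, and 0.01 without normoosmotic replicate 2, hypoosmotic replicate 2 or hypoosmotic replicate 4.

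The Atg8 family, whose lipid-bound members line the autophagosome, also had 0 of 5 genes called. Map1lc3b, which encodes the widely used autophagosome marker LC3B, had log2 values of 8.34, 8.46, 8.53 and 9.19 in hypoosmotic replicates 1 to 4, against 8.48, 8.60, 8.89 and 8.58 in normoosmotic replicates 1 to 4. Hypoosmotic replicate 4 was the highest of all 8 arrays and hypoosmotic replicate 1 the lowest, which gave an SD of 0.38, the largest of the 41 genes in that group. The log2 change was −0.01 with a 95% interval of −0.38 to 0.36. The other Map1lc3b probe set had a log2 change of 0.14 (−0.24 to 0.52) and was also highest in hypoosmotic replicate 4, at 9.10.

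Map1lc3a had log2 values of 4.48, 4.69, 5.11 and 4.61 in hypoosmotic replicates 1 to 4, against 4.82, 4.89, 4.94 and 4.97 in normoosmotic replicates 1 to 4. The normoosmotic values lay close together and the hypoosmotic ones on both sides of them, with a log2 change of −0.18 (95% interval −0.48 to 0.11). Gabarapl2 had values of 8.84, 9.16, 8.90 and 9.19 in hypoosmotic replicates, against 9.0, 9.02, 9.14 and 9.30 in normoosmotic replicates, a log2 change of −0.09 that was −0.11 on its other probe set. Gabarap and Gabarapl1, of the same branch of the family, had changes of 0.03 and −0.08, and both intervals lay within −0.38 and 0.26.

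Among lysosomal genes 0 of 11 were called, and Ctsl stood on the other side of 0 from most of them. Ctsl (probe set 10793458) encodes the cysteine protease cathepsin L. It had log2 values of 11.25, 11.31, 11.31 and 11.48 in hypoosmotic replicates 1 to 4, against 11.53, 11.66, 11.59 and 11.62 in normoosmotic replicates 1 to 4. All hypoosmotic arrays lay below all normoosmotic ones, and the log2 change was −0.26 ± 0.10 (SE; adjusted p = 0.252, limma).

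Gaa, the acid alpha-glucosidase that digests glycogen in lysosomes, had values of 7.43, 7.39, 7.38 and 7.55 in hypoosmotic replicates, against 7.14, 7.11, 7.03 and 7.42 in normoosmotic replicates. Normoosmotic replicate 4 alone reached into the hypoosmotic range, and the log2 change was 0.26 ± 0.12 (SE; adjusted p = 0.312, limma). The aspartic protease gene Ctsd had values of 9.07, 9.08, 9.09 and 9.03 in hypoosmotic replicates, against 9.02, 8.78, 8.84 and 8.97 in normoosmotic replicates. These groups did not overlap but came within 0.01 of each other, and the log2 change was 0.17 (95% interval −0.06 to 0.39).

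The cathepsin genes Ctsb and Ctsz had log2 changes of 0.17 and 0.19 with 95% intervals of −0.05 to 0.39 and −0.05 to 0.43. Ctsb had values of 10.22, 10.34, 10.27 and 10.34 in hypoosmotic replicates, against 10.13, 10.09, 10.06 and 10.22 in normoosmotic replicates, so that the groups touched at 1 value. Ctsz had values of 6.76, 6.88, 6.76 and 6.83 in hypoosmotic replicates, against 6.47, 6.57, 6.59 and 6.84 in normoosmotic replicates. Normoosmotic replicate 4 alone lay within the hypoosmotic range of Ctsz. Ctsa, the protective protein of the sialidase Neu1, had a change of 0.03, Neu1 itself one of −0.01 and the hexosaminidase subunit gene Hexa one of −0.06. Neu1 varied more than any of the other 40 genes in normoosmotic arrays, from 6.70 to 7.83 (SD 0.46), against 7.19 to 7.34 in hypoosmotic arrays.

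Of the lysosomal membrane genes, Mcoln1, a calcium channel whose opening activates Tfeb, had log2 values of 7.78, 7.98, 7.99 and 8.17 in hypoosmotic replicates 1 to 4, against 7.87, 7.51, 7.71 and 7.92 in normoosmotic replicates 1 to 4. Hypoosmotic replicates 2 to 4 lay above the normoosmotic arrays, with a log2 change of 0.23 (95% interval −0.05 to 0.50). Lamp2, which autophagosomes need in order to fuse with lysosomes, had values of 10.50, 10.70, 10.54 and 10.79 in hypoosmotic replicates, against 10.91, 10.48, 10.49 and 10.72 in normoosmotic replicates, a log2 change of −0.02 (−0.29 to 0.26). Its groups overlapped throughout. Lamp1 had values of 8.90, 8.99, 9.02 and 9.18 in hypoosmotic replicates, against 8.95, 8.96, 8.95 and 8.96 in normoosmotic replicates, a log2 change of 0.07.

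Tfeb, the transcription factor that drives lysosomal and autophagy genes, was the 1 measured transcription factor. Its log2 values were 4.68, 4.63, 4.72 and 4.67 in hypoosmotic replicates 1 to 4, against 4.70, 4.64, 4.71 and 4.95 in normoosmotic replicates 1 to 4. Except for normoosmotic replicate 4 the arrays were nearly equal, and the log2 change was −0.08 (95% interval −0.31 to 0.16). The core of the element that Tfeb binds, the palindrome TCACGTGA, was found in RefSeq promoters of GRCr8 for 4 of the 41 listed genes that have one there, or 9.76%, against 0.777% of all 33469 promoters of the same length of 300 bases. The stretches are shown because they mark the genes of the set with that element, with 20 bases on either side and the palindrome in capitals.
Ctsd (chr1:206968805-206968852, minus strand): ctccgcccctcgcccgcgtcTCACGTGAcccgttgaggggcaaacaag
Mcoln1 (chr12:6358241-6358288, plus strand): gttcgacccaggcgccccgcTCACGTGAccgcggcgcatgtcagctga
Lamp1 (chr16:83075075-83075149, minus strand): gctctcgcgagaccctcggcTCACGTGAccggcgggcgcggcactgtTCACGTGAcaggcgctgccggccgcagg
Atg3 (chr11:69159270-69159317, minus strand): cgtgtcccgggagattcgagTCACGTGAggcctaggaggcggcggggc
Lamp1 holds the palindrome 2 times. The changes of these genes were 0.17 for Ctsd, 0.23 for Mcoln1, 0.07 for Lamp1 and −0.07 for Atg3, and 0 of the 4 were called. The E-box CACGTG, which lies within the palindrome, was also found for Atg14, Atg5, Bnip3 and Gaa. In this way 8 of the 41 listed genes with a promoter had it (19.5%), against 6.42% of all promoters. A match is a description of these letters only. The set was listed for the lysosomal and autophagy roles that Tfeb drives, so an excess of its element is no result of these data. In each motif share the set counts genes and the background counts promoters.

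Over the 8 lysosomal hydrolases the median change was 0.10, and over the 3 membrane genes 0.07. After subtraction of array medians, which moved every change by the same amount and the median of all genes to −0.005, they were 0.05 and 0.03. The median of the hydrolases was 0.18 without normoosmotic replicate 4 and 0.0567 without normoosmotic replicate 2. The median of the membrane genes was 0.11 without hypoosmotic replicate 1 and 0.015 without hypoosmotic replicate 4. Under quantile normalization the initiation complex had a median of −0.12 and the receptors one of −0.27. No test of the difference between these groups was made.

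Further lysosomal genes, in 2 related lists, mostly had small changes above 0. Of 27 other hydrolases and their activators 23 had a change above 0, or 85.2%, against 58.1% of all genes, with a median of 0.12, and 0 were called. Of 23 other genes of the lysosomal membrane and of trafficking 18 had a change above 0, or 78.3%, with a median of 0.13, and 0 were called. After subtraction of array medians the shares above 0 were 85.2% and 69.6%, against 49.2% of all genes. In 5 of the 23 membrane and trafficking genes the groups did not overlap, all higher in hypoosmotic arrays, against 3.21% of all genes. The count for this list was not repeated with array medians subtracted, a step that took the count for the 41 genes from 7 to 4. The highest log2 change among these 5 was that of the ion channel gene Tpcn1, at 0.53 (adjusted p = 0.0832, limma), followed by Ostm1, the partner of the lysosomal chloride transporter, at 0.51 (0.0907), and Igf2r, a receptor that sorts hydrolases to lysosomes, at 0.43 (0.0971). These 3 were named after their values were seen.

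Liver macrophages and sinusoidal endothelium are rich in lysosomes, and their markers were set beside these values. Of 10 macrophage markers 9 had a change above 0, with a median of 0.12, and 0 were called. Their summed linear signal was 951 to 1509 in hypoosmotic arrays and 885 to 1273 in normoosmotic arrays, with Adgre1 the dimmest at a mean log2 value of 5.31. Of 5 endothelial markers 4 had a change above 0, with a median of 0.14, 0 were called, and the summed signal was 1214 to 1526 in hypoosmotic arrays and 1082 to 1556 in normoosmotic arrays. For each array, the median deviation of a list is that of its genes from their own means over the 8 arrays. In hypoosmotic replicate 2 it was 0.14 in both other lysosomal lists, 0.42 in macrophage markers and 0.28 in endothelial markers. In hypoosmotic replicate 4 it was 0.18 and 0.135 in the hydrolase and membrane lists, against −0.18 and −0.11 in those markers. In hypoosmotic replicates 1 and 3 the hydrolase list had −0.07 and 0.03, and the membrane list 0.07 and −0.02. There the macrophage markers had −0.12 and 0.17, and the endothelial markers −0.05 and −0.004. In normoosmotic replicates 1 to 4 the hydrolase list had −0.02, −0.21, −0.045 and 0.04, and the membrane list −0.07, −0.15, −0.105 and 0.01. There the macrophage markers had −0.04, −0.16, −0.20 and 0.26, and the endothelial markers −0.08, −0.21, −0.03 and 0.31. The part of these cells in the lysosomal values was not tested.

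**Figure D3:**
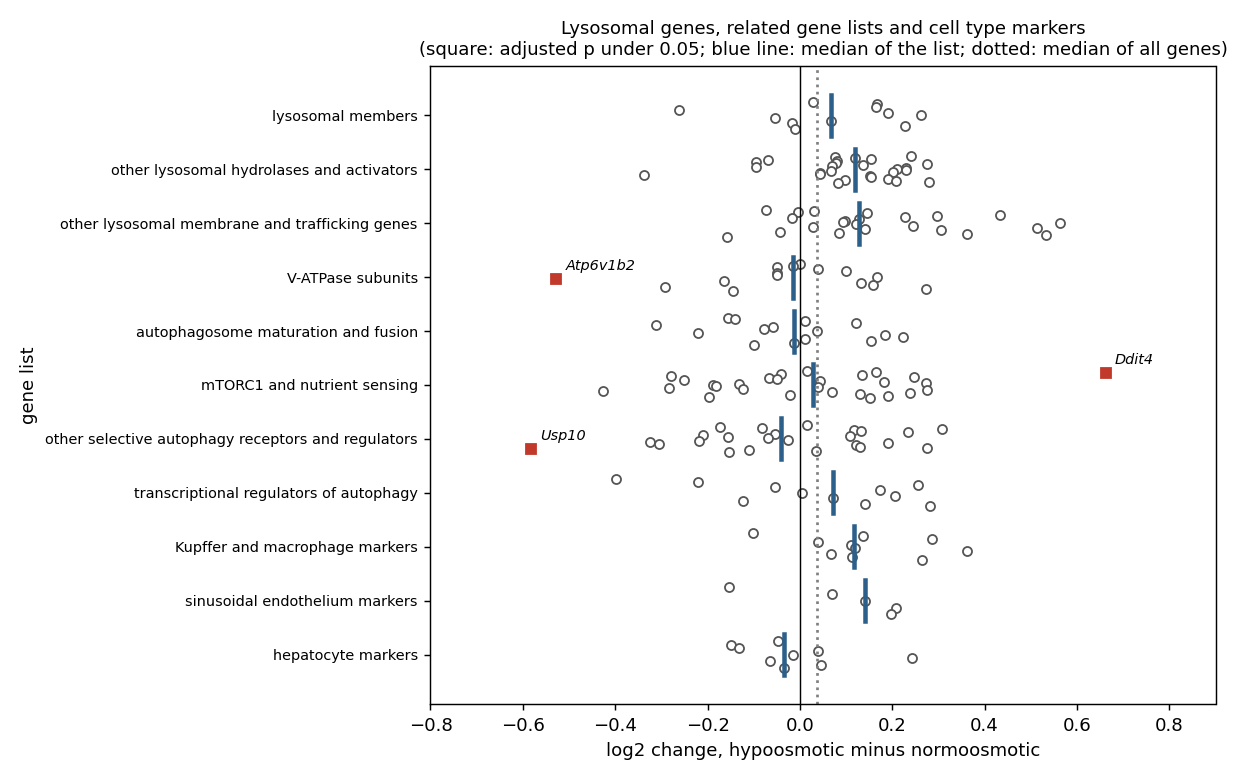
Log2 change of each gene, hypoosmotic minus normoosmotic (x axis), for the 11 lysosomal genes of the set, 7 related lists and 3 lists of cell type markers (y axis); squares are called genes, blue lines are list medians and the dotted line is the median of all genes. Atp6v1b2, Usp10 and Ddit4 are the squares. The medians are 0.12 and 0.13 for the other lysosomal lists, and 0.12 and 0.14 for the macrophage and endothelial markers.

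The V-ATPase, the pump that acidifies lysosomes, had 1 of 15 subunit genes called lower and 0 higher, against 1.42% and 0.558% of all genes. Atp6v1b2 (probe set 10791233), the subunit B gene expressed in most tissues, had log2 values of 8.0, 8.21, 8.10 and 8.20 in hypoosmotic replicates 1 to 4, against 8.90, 8.49, 8.55 and 8.68 in normoosmotic replicates 1 to 4. The groups did not overlap, and it fell by 0.53 ± 0.12 on the log2 scale (SE; limma, adjusted p = 0.0424). It kept the call in 8 of 17 alternatives, and the median of the 15 genes was −0.02, against 0.04 over all genes.

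The kinase complex mTORC1 restrains autophagy when amino acids are plentiful. A list of mTORC1 and nutrient sensing holds genes that activate it as well as genes that inhibit it. Of its 28 measured genes 1 was called higher and 0 lower, against 0.558% and 1.42% of all genes. The median change was 0.03 and pools both kinds of gene. The called gene was the mTORC1 inhibitor Ddit4, at 5.63, 5.26, 5.42 and 5.51 in hypoosmotic replicates 1 to 4, against 4.69, 5.04, 4.58 and 4.86 in normoosmotic replicates 1 to 4, a rise in every hypoosmotic array over every normoosmotic one. It rose by 0.66 ± 0.13 on the log2 scale (SE; limma, adjusted p = 0.0213) and kept the call in 12 of 17 alternatives.

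Of 24 other receptors and regulators of autophagy 1 was called lower and 0 higher, against 1.42% and 0.558% of all genes, with a median change of −0.04. With lists this short, 1 called gene is no result about a list. The deubiquitinase gene Usp10, whose product acts on Becn1 complexes, had values of 5.88, 5.53, 5.39 and 5.75 in hypoosmotic replicates, against 6.14, 6.05, 6.47 and 6.22 in normoosmotic replicates. It fell by 0.58 ± 0.14 on the log2 scale (SE; limma, adjusted p = 0.0471) and kept the call in 7 of 17 alternatives. Of the 15 genes of autophagosome maturation and fusion 0 were called, with a median change of −0.01 and the lowest change, −0.31, in the fusion protein gene Snap29.

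For the 39 genes of the set that were not called, the 95% intervals give the precision of each change, gene by gene. They are not adjusted for their number and rest on a spread that may be technical, so larger changes could still have been missed. In 34 of the 39 genes the whole interval lay between −0.5 and 0.5 log2 units, and over all 39 the outermost bounds were −0.58 and 0.51. In 17 the change was under 0.1 in size. No gene of the set lay in the dimmest 25% of genes by mean signal.

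The arrays of one group differed from each other in a way that ran through much of the set. Hypoosmotic replicate 4 was the highest of its group in 29 of the 41 genes, against 28.4% of all genes, and hypoosmotic replicate 1 the lowest in 20, against 24.6%. Among normoosmotic arrays replicate 2 was the lowest in 18 genes, against 27.1% of all genes, and replicates 3 and 4 were the highest in 15 and 14, against 24.3% and 25.9%. The typical spread was still small, with a median SD over the 41 genes of 0.132 in hypoosmotic arrays and 0.137 in normoosmotic arrays, against 0.179 and 0.167 over all genes. All genes include the dimmest 25%, where no gene of the set lay.

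**Figure D4:**
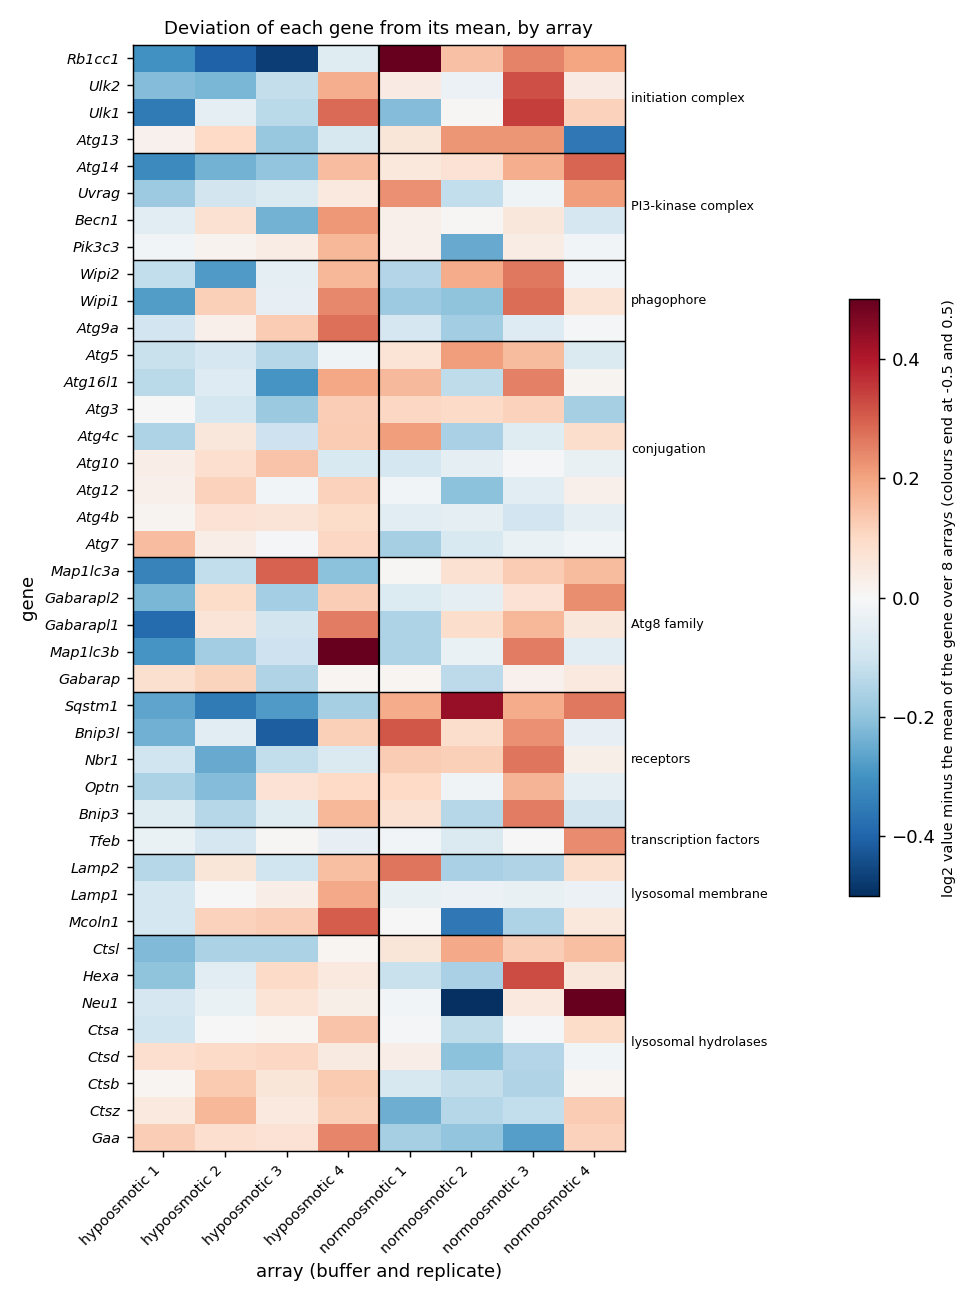
Log2 value of each of the 41 genes minus its mean over the 8 arrays, as colour, for the 4 hypoosmotic arrays (left) and the 4 normoosmotic arrays (right), with genes in rows grouped by role and arrays in columns; colours end at −0.5 and 0.5. Sqstm1 and Rb1cc1 are blue in all hypoosmotic arrays and red in all normoosmotic ones, and the column of hypoosmotic replicate 4 is red in more rows than the other hypoosmotic columns.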

How the data were processed

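Total RNA of 8 samples of perfused liver was measured on 1-colour Affymetrix arrays. Per the submitters' processing notes, Transcriptome Analysis Console version 4.0 was used. How probe sets were summarised and normalized is not given in the sources used here. Values of 27596 probe sets, deposited by the authors, were used unchanged, and their range of 0.88 to 13.26 marks them as log2. Precision is limited by the 4 arrays per group.

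Of the probe sets 15310 had 1 symbol in the platform annotation and 323 more than 1, while 11963 have no name here. Gene IDs served to update symbols with the RefSeq table of GRCr8 (15279 matched). The brightest of a gene's probe sets gave 14506 genes. The 2 groups were compared with limma 3.58.1 in R 4.3.3 (lmFit, eBayes, group as the only term, two-sided), with Benjamini-Hochberg adjustment over all genes. The fit was also run on simulated data with added changes, as a check of the code. Recovery rates are not given here, so how often changes of the sizes seen in this set would be called is not stated. Alternatives were other scalings, priors, probe set rules and thresholds, array weights, the clock score or replicate number as a further term, and each array left out in turn.

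The members, lists and alternatives were chosen with earlier results of these data known. Array values were given for called genes, for the 2 smallest p in each role group, for Ulk1, Map1lc3b, Sqstm1, Bnip3, Tfeb, Lamp2 and Ctsl, and for the 5 largest rises and falls. From the related lists called genes were named, up to 4 a list. Markers of stellate cells, cholangiocytes, neutrophils, lymphocytes and erythroid cells had 0 called genes each.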

Additional observations from a re-analysis of the deposited data

Results flagged for a closer look

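Among the 82 sets of 4 values formed by 41 genes and 2 groups, 1 held an array far from the rest of its group. Atg3 read 6.97 in normoosmotic replicate 4, against 7.23 to 7.25 in the other normoosmotic arrays. Chance gives such a gap in about 1 of 20 sets.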

How the results depend on the processing

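Both called genes, Sqstm1 and Rb1cc1, kept their direction in all 17 alternatives and their call in 9 and 8 of them, with adjusted p-values of 0.00908 to 0.0899 and of 0.0254 to 0.159. The number of called genes of the set, all lower, was 1 with the replicate block, with the mean over probe sets and with all probe sets, 0 with the clock score as covariate and at an adjusted p under 0.01, and 0 to 2 when each array was left out. Among all genes 287 were called, 92 with the clock score and 81 to 365 with an array left out. In 7 genes of the set the groups did not overlap (17.1%, against 8.27% of all genes, or 9.95% without the dimmest 25%). The count was 11 with quantile normalization (26.8% against 9.31%), 4 with array medians subtracted (9.76% against 7.41%) and 7 to 12 with an array left out (all genes 10.3% to 14.8%). The median change of the lysosomal hydrolases was 0.0567 to 0.18 with an array left out. Of 23 other named genes, none was called under any of the 17 alternatives, and 377 of 391 values kept their direction. The rest were changes near 0. Map1lc3b had 0.065 with the mean over probe sets, 0.0579 with the clock score and −0.19 to 0.0892 with an array left out. Bnip3 had 0.0125, 0.0377 and −0.11 to 0.0275 under the same settings, and Lamp2 0.0042 with the clock score and −0.0742 to 0.0692 with an array left out. The causes were not tested.

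The replicate numbers are shared between groups, but nothing in the labels pairs the samples. Deviations of same-numbered arrays correlated at 0.0456, 0.0276, 0.0835 and 0.173. Among the hypoosmotic arrays only replicate 4 correlated best with the normoosmotic array of its own number. With the replicate block Sqstm1 had an adjusted p of 0.051 and Rb1cc1 one of 0.0495, and 256 of all genes were called. No gene of the set lay in the dimmest 25%, but some were not bright. Atg10, Tfeb, Atg4b and Map1lc3a had mean log2 values of 4.33, 4.71, 4.80 and 4.81, against a median of 4.65 over all genes. Whether dim signal limited their changes was not tested.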

Other observations

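Of 11 transcriptional regulators of autophagy 0 were called, with a median log2 change of 0.07. The lowest was Atf4, an activator of autophagy genes under amino acid shortage. It read 8.77, 8.81, 8.83 and 8.86 in hypoosmotic replicates 1 to 4, against 8.95, 9.23, 9.31 and 9.37 in normoosmotic replicates 1 to 4. The groups did not overlap, and the log2 change was −0.40 ± 0.12 (SE; limma, adjusted p = 0.105). Rragc, a GTPase gene through which amino acids recruit mTORC1 to lysosomes, had 6.27, 6.23, 6.14 and 6.51 in hypoosmotic replicates, against 6.90, 6.58, 7.03 and 6.35 in normoosmotic replicates. Normoosmotic replicate 4 lay within the hypoosmotic range, and the log2 change was −0.43 ± 0.15 (SE; limma, adjusted p = 0.191). Both genes were chosen after their values were seen.

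Erythroid markers had changes below 0 in 3 of 3 genes, with the haemoglobin gene Hbb at 6.70, 7.44, 6.19 and 6.33 in hypoosmotic replicates 1 to 4, against 6.35, 7.78, 7.63 and 8.31 in normoosmotic replicates 1 to 4 (limma, adjusted p = 0.279).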
